A study of Mus musculus with 9 samples.

Results

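The AP-1 family was followed through 9 genes, Fos, Fosb, Fosl2, Jun, Junb, Jund, Atf3, Batf3 and Maff. They were found by symbol among the 31053 genes of the count tables, which uses no measured value. The choice of these genes was made with earlier results of these data known. RNA of single Lin- cKit+ Sca1+ (LSK) cells, the bone marrow fraction that holds haematopoietic stem cells (HSCs) and multipotent progenitors (MPPs), was sequenced by 10x Genomics 3′ chemistry from 9 samples of C57BL/6 mice. The 3 young samples came from mice of 10 to 12 weeks and the 3 aged samples from mice older than 80 weeks, and both received cyclodextrin, the vehicle, by injection. The 3 CASIN samples came from mice older than 80 weeks that received CASIN, an inhibitor of the activity of the small RhoGTPase Cdc42, at 25 mg/kg in cyclodextrin by 4 intraperitoneal injections at intervals of 24 h, and marrow was harvested on day 5. For all 9 samples cells had been frozen viably and were thawed before sequencing. The labels name 2 sequencing batches: young samples 1 and 2, aged sample 1 and CASIN samples 1 and 2 made up batch 1, and young sample 3, aged samples 2 and 3 and CASIN sample 3 made up batch 2. Whether a sample came from 1 mouse or from pooled mice was not stated, so p-values measure the spread between these samples.

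AP-1 is a dimer of basic leucine zipper proteins that binds DNA at short palindromes and turns transcription of nearby genes up or down. JUN proteins pair with each other or with FOS proteins, FOS proteins need a JUN partner, and ATF, BATF and small MAF proteins join the same network with other partners. Fos, Fosb, Jun, Junb and Atf3 are immediate early genes, whose RNA rises within minutes of a growth factor, cytokine or stress signal through MAP kinases and falls again soon after, whereas Jund is the member most cells keep on at rest. In blood formation AP-1 proteins are known for roles in myeloid differentiation, in the control of HSC division and in the response of cells to being taken out of their tissue.

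The members lie on 7 chromosomes of GRCm38 and all 9 are protein coding in the GENCODE annotation of that build. The JUN genes among them are Jun (ENSMUSG00000052684, chr4:95049034-95052222), Junb (ENSMUSG00000052837, chr8:84974484-84978718) and Jund (ENSMUSG00000071076, chr8:70698949-70700616). The FOS genes among them are Fos (ENSMUSG00000021250, chr12:85473890-85477273), Fosb (ENSMUSG00000003545, chr7:19302696-19310051) and Fosl2 (ENSMUSG00000029135, chr5:32135801-32157842). The remaining members are Atf3 (ENSMUSG00000026628, chr1:191170296-191218039), Batf3 (ENSMUSG00000026630, chr1:191097847-191108945) and Maff (ENSMUSG00000042622, chr15:79346621-79359076). On the opposite strand, Jun is overlapped by Junos, Jund by Gm11175, Junb by Prdx2 and Atf3 by Gm24748, and the sources used here do not state whether counting used the strand, so reads of these pairs cannot be told apart from the tables alone.

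The 250 bases before the start site are printed for 6 members, because Fos, Fosb, Jun and Junb were lower and Fosl2 and Atf3 higher in batch 2, the widest split within the family. Sequences are from RefSeq (GRCm38.p6), 5′ to 3′ on the gene's strand. Capitals mark matches to TGACG, the core of a cAMP response element, or to TGACNTCA, a related pattern that FOS, JUN and ATF proteins bind. In TGACNTCA any base may stand at N, and only TGACGTCA is a palindrome and holds TGACG. The windows are chr12:85473640-85473889 (forward strand) for Fos, chr7:19310046-19310295 (reverse strand) for Fosb, chr4:95052223-95052472 (reverse strand) for Jun, chr8:84978749-84978998 (reverse strand) for Junb, chr5:32136222-32136471 (forward strand) for Fosl2 and chr1:191183334-191183583 (reverse strand) for Atf3.
Fos: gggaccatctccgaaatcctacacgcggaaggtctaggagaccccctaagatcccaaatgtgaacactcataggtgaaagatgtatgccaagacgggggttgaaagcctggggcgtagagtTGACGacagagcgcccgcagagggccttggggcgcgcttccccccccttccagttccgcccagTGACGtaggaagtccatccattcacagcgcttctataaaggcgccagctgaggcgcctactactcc
Fosb: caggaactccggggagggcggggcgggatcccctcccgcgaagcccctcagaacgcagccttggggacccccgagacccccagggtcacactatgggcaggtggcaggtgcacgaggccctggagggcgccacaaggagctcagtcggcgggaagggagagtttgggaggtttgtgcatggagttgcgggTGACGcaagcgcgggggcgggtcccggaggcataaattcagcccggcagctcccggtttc
Jun: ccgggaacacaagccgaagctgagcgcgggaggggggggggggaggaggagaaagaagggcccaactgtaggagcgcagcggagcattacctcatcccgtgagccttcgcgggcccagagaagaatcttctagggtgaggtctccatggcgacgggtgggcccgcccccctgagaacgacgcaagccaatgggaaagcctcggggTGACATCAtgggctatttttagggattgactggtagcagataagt
Junb: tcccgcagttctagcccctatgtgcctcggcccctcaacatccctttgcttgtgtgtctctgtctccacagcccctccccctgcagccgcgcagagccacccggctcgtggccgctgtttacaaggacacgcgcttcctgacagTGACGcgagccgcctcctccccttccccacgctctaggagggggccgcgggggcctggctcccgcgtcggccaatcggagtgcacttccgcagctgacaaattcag
Fosl2: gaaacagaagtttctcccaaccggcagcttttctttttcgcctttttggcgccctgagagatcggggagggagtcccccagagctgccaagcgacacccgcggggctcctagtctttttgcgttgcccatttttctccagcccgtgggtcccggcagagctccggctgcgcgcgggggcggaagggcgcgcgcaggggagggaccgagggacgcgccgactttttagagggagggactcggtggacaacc
Atf3: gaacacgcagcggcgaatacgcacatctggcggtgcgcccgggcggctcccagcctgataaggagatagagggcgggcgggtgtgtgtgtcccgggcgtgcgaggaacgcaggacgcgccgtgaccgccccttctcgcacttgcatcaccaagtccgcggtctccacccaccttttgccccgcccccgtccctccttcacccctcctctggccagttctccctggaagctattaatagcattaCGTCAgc

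The Fos window holds TGACG from -129 to -125 and from -66 to -62 relative to the start, the Fosb window from -60 to -56 and the Junb window from -106 to -102, and the Atf3 window holds it on the other strand (CGTCA) from -7 to -3. The Jun window holds TGACATCA from -45 to -38, and the Fosl2 window holds neither motif. Both strands were searched, and in the second of 3 Maff windows TGACGTCA from -29 to -22 matched both motifs at once. A match to TGACG stands in 17.8% and one to TGACNTCA in 7.49% of 32851 promoters of the same length. TGANTCA, the classical AP-1 element, stands in 6.75% of them and the CArG box of serum response factor in 1.47%. Neither was found in a window of any of the 9 members. Bases outside the windows were not searched for any member. A motif missing from a window may therefore still stand further from the start of that gene. Of the windows not printed, those of Jund and Batf3 hold none of the 4 motifs, and the third Maff window holds TGACATCA and CGTCA. The Jund window ends at chr8:70697738, and the GENCODE gene starts at chr8:70698949. The bases before the GENCODE starts of Jund, Fosl2, Atf3 and Batf3 were not searched. A match is a string of letters and no measured binding site.

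The 9 libraries held 19237354 to 42780953 unique molecular identifiers (UMIs) in 32387 cell barcodes, of which 15856 passed the filters of the study's methods. The batches stood apart before any comparison. The median mitochondrial share of UMIs per barcode was 2.73% to 4.61% in batch 1 and 13.0% to 15.5% in batch 2, and 56.4% to 86.2% of barcodes were kept in batch 1 against 31.6% to 38.4% in batch 2. Kept cells had medians of 9532 to 14622 UMIs, and pairs of libraries shared 0 to 16 kept barcodes. Ly6a, which encodes Sca1, was at 87.9 to 186 CPM (UMIs of a gene scaled to the same total in each sample) and Kit at 112 to 225 CPM in the 9 samples. In clusters formed without the members and other early-response genes, 3410 cells were HSC-like by their markers, and their share of a sample's cells was 12.7% to 15.0% (young), 17.7% to 37.3% (aged) and 24.2% to 30.7% (CASIN). In sums over a sample, fewer cells of a type and less RNA per cell cannot be told apart, so each comparison is given over all LSK cells and within HSC-like cells.

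Most members differed more between the sequencing batches than between the groups. Over all LSK cells, Fos differed by -6.02 (batch 2 over batch 1, log2), from 1296 to 2615 CPM in the 5 samples of batch 1 to 17.7 to 135 CPM in the 4 of batch 2, while Fosl2 and Atf3 were higher in batch 2. The plot of each member's CPM by sample shows the 2 batches side by side.

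A gene is called here when its Benjamini-Hochberg adjusted p, from edgeR's quasi-likelihood test on UMIs summed per sample with group and batch as terms, was under 0.05 over all genes tested. Between batches 7 of 9 members were called over all LSK cells, where 71% of all 13948 genes tested were called, so the number is not particular to the family and the sizes are what the members add. Jun (-2.10 on the log2 scale), Junb (-1.61), Fosb (-1.84) and Jund (-0.58) were lower in batch 2, as was Fos. Fosl2 (2.53) and Atf3 (2.12) were higher, and Batf3 (-0.90, adjusted p = 0.156) and Maff (0.23, adjusted p = 0.208) were not called. In HSC-like cells, where 69.8% of genes were called, the differences of Fos (-6.63), Jun (-3.71) and Fosb (-3.49) were larger in size than over all LSK cells and that of Atf3 was smaller (0.92); the difference between the 2 sets of cells was not tested. Sequencing, cell quality and handling cannot be told apart as sources of the difference between batches, since all cells of a sample share its batch.

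The make-up of the family's RNA changed with the batch. Fos gave, over all LSK cells, 34.7% to 39.4% of the UMIs of the 9 members in batch 1 and 1.12% to 3.99% in batch 2. Jund, the member with the smallest called difference between batches, gave 21.9% to 24.6% in batch 1 and 35.6% to 52.4% in batch 2. Fosl2 moved from 0.346% to 0.439% in batch 1 to 5.39% to 7.49% in batch 2 and Atf3 from 0.421% to 0.506% in batch 1 to 5.27% to 8.28% in batch 2. These shares come from 3′ UMIs, of which a transcript gives 1 whatever its length, so they were not divided by length.

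**Figure D1:**
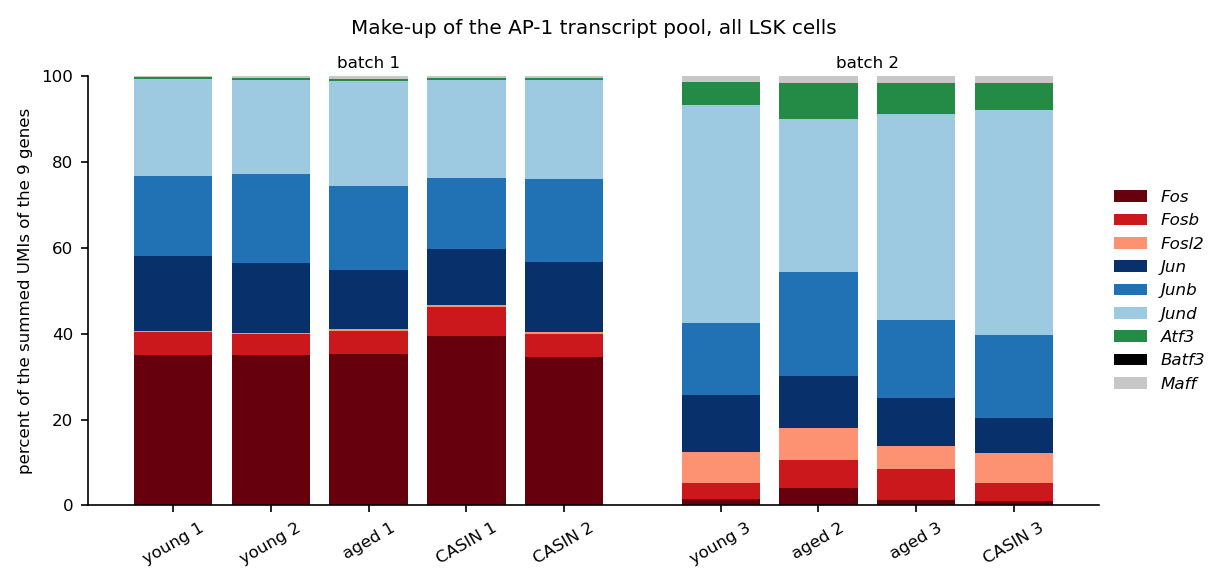
Stacked share (percent) of the UMIs of the 9 members that each member gives in each sample over all LSK cells, with the batches side by side. Fos takes 34.7% to 39.4% in the 5 samples of batch 1 and 1.12% to 3.99% in the 4 of batch 2, where Jund takes 35.6% to 52.4%.

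With the batch as a term in the fit, part of the AP-1 family was higher in aged than in young LSK cells. Over all LSK cells 6 of the 9 members (Fosb, Fosl2, Junb, Jund, Atf3 and Maff) were higher in aged than in young samples, where 3.62% of all genes tested were called higher and 4.14% in either direction. None was called lower, and Fos, Jun and Batf3 did not pass. The count was 2 without young sample 1 or 2, 3 without young sample 3 and, as in HSC-like cells, 0 without the batch term. The share of all genes called in such fits is not given, so these counts are not read as a trait of the family. The median log2 difference of the 9 members was 1.51, against 0.0151 over all 13948 genes. In HSC-like cells the same 6 of 8 tested members were called higher, where 5.75% of 11504 genes were called higher and 8.61% in either direction; Batf3 had too few UMIs there to be tested. The 9 members of all LSK cells had every aged sample above every young sample of the same batch, as did 18.9% of all genes, and in HSC-like cells this held for 7 of 8 members (all but Fos) and for 15.3% of genes. Batf3 is counted in the 9 and in their median, though it passed the low-count filter only through its aged and CASIN samples. Its direction is therefore no support here.

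Among the JUN genes, Jund showed the most even difference between batches over all LSK cells, while in HSC-like cells that of Junb was more even. Jund stood, over all LSK cells, at 830.5, 848 and 596 CPM in the young, 1665, 1201 and 1176 CPM in the aged and 1504, 1349.7 and 858 CPM in the CASIN samples, with replicates in the order 1, 2 and 3 here and below. In HSC-like cells it stood at 1641, 1466 and 459 CPM in the young, 2558, 1182 and 1002 CPM in the aged and 2679.9, 2468 and 891 CPM in the CASIN samples. Aged sample 1 lay above both young samples of batch 1, and aged samples 2 and 3 lay above young sample 3, in both sets of cells. The aged over young log2 difference of Jund was 1.03 (SE 0.077, adjusted p = 0.00131) over all LSK cells, rank 2 by p among all genes, and 1.04 (SE 0.12, adjusted p = 8.50e-05) in HSC-like cells, or 2.04-fold and 2.06-fold.

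Junb, a JUN protein that restrains the cycling of stem cells, stood at 694, 804 and 199 CPM in the young, 1322, 820.0 and 443 CPM in the aged and 1108, 1133 and 318 CPM in the CASIN samples over all LSK cells. In HSC-like cells the values of Junb were 721, 799 and 261 CPM in the young, 1846, 904 and 477 CPM in the aged and 1621, 1729 and 391 CPM in the CASIN samples. In each batch the aged samples again lay above the young, and within batch 2 aged sample 2 lay above aged sample 3. Junb was higher in aged samples by 1.303 (SE 0.25, adjusted p = 0.0258) over all LSK cells and by 1.48 (SE 0.20, adjusted p = 0.000316) in HSC-like cells.

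Jun, the founding member and main partner of FOS proteins, stood at 644, 634 and 155 CPM in the young, 934, 409 and 274 CPM in the aged and 866, 953 and 133 CPM in the CASIN samples over all LSK cells. Its values in HSC-like cells were 827, 749 and 100.01 CPM in the young, 1299.9, 144 and 104 CPM in the aged and 1374, 1575 and 62.4 CPM in the CASIN samples. The aged samples lay above the young samples of their batch in both sets of cells, by a small margin in HSC-like cells of batch 2, and Jun was not called: the log2 difference was 1.00 (SE 0.25, adjusted p = 0.0599) over all LSK cells and 0.75 (SE 0.23, adjusted p = 0.0612) in HSC-like cells.

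Fos, the FOS member most quickly switched on by a signal, varied most. Fos stood, over all LSK cells, at 1296, 1364 and 17.7 CPM in the young, 2391, 135 and 32.3 CPM in the aged and 2615, 2026 and 18.3 CPM in the CASIN samples. In HSC-like cells it stood at 2866, 2370.4 and 44.1 CPM in the young, 3719.8, 118 and 34.8 CPM in the aged and 4529, 3765 and 9.21 CPM in the CASIN samples, where aged sample 3 lay below young sample 3. The log2 difference between aged and young was 1.78 (SE 0.57, adjusted p = 0.108) over all LSK cells and 1.06 (SE 0.51, adjusted p = 0.235) in HSC-like cells, and neither passed the threshold. Aged samples 2 and 3, of the same batch, were themselves far apart, and the standard errors of Fos were the largest of the members with more than a few UMIs.

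Fosb, which shares early induction with Fos, stood at 199, 182 and 44.4 CPM in the young, 362, 219 and 173 CPM in the aged and 452, 310.0 and 68.0 CPM in the CASIN samples over all LSK cells. Its values in HSC-like cells were 504, 389 and 29.9 CPM in the young, 590.2, 132 and 90.2 CPM in the aged and 829, 629.8 and 40.2 CPM in the CASIN samples. The aged samples lay above the young of their batch, most clearly in batch 2. Fosb was higher in aged samples by 1.71 (SE 0.32, adjusted p = 0.0238) over all LSK cells and by 1.24 (SE 0.30, adjusted p = 0.0199) in HSC-like cells.

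Fosl2 (Fra-2), a FOS protein that is expressed later and lasts longer after a signal, stood at 13.5, 13.8 and 84.5 CPM in the young, 29.7, 253 and 132 CPM in the aged and 23.0, 24.1 and 115 CPM in the CASIN samples over all LSK cells. In HSC-like cells the values of Fosl2 were 14.2, 14.9 and 92.2 CPM in the young, 36.4, 333 and 167 CPM in the aged and 29.7, 38.4 and 170.4 CPM in the CASIN samples. Its batches lie the other way round from those of Fos, and within each the aged samples lay above the young. Fosl2 was higher in aged samples by 1.21 (SE 0.21, adjusted p = 0.0205) over all LSK cells and by 1.49 (SE 0.24, adjusted p = 0.00122) in HSC-like cells.

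Atf3, a stress-induced ATF protein that can repress as a homodimer, stood at 15.6, 18.8 and 61.9 CPM in the young, 31.3, 279 and 177 CPM in the aged and 33.6, 27.7 and 101 CPM in the CASIN samples over all LSK cells. In HSC-like cells Atf3 stood at 35.02, 21.7 and 36.8 CPM in the young, 53.0, 216 and 115 CPM in the aged and 67.7, 53.8 and 99.3 CPM in the CASIN samples. Aged samples 2 and 3 were the highest of the 9 samples in both sets of cells. Atf3 was higher in aged samples by 1.51 (SE 0.27, adjusted p = 0.022) over all LSK cells and by 1.62 (SE 0.29, adjusted p = 0.00331) in HSC-like cells.

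Maff, a small MAF protein without a transactivation domain, stood at 11.2, 15.8 and 16.8 CPM in the young, 38.3, 56.2 and 36.3 CPM in the aged and 27.6, 22.0 and 27.2 CPM in the CASIN samples over all LSK cells. Its values in HSC-like cells were 23.4, 38.3 and 34.3 CPM in the young, 57.4, 97.0 and 48.5 CPM in the aged and 55.3, 40.8 and 48.3 CPM in the CASIN samples. Maff was the called member whose batches differed least. Over all LSK cells its 3 aged samples lay above its 3 young samples across batches too, as did those of Jund and Batf3. The share of all genes for which this held is not given. Maff was higher in aged samples by 1.51 (SE 0.19, adjusted p = 0.00768) over all LSK cells and by 1.08 (SE 0.25, adjusted p = 0.0131) in HSC-like cells. Batf3, best known from the development of dendritic cells, gave 59 UMIs in the 15856 cells: 3, 3 and 2 in the young, 11, 6 and 9 in the aged and 15, 5 and 5 in the CASIN samples. Of these, 40 lay in the 179 myeloid progenitor-like cells and 2 in HSC-like cells, both in CASIN sample 3. The log2 difference of Batf3 between aged and young was 2.49 (SE 0.68, adjusted p = 0.0739), which was not called at this depth. With 2 or 3 UMIs per young sample, Batf3 passed the low-count filter only through aged and CASIN samples. It was tested in 7 of the 9 fits with 1 sample left out. A higher level of Batf3 in aged or CASIN than in young samples was thus in part set by the filter.

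Split by batch, each member had a positive aged over young difference over all LSK cells in both batches, with Batf3 under the limit of the low-count filter given above. A comparison of aged with young within a batch has 1 sample in at least 1 arm, and that sample is assumed to vary like the others. The test of a difference between batches rests on the same samples. On simulated counts it recovered 4% of genes changed by 1 on the log2 scale. A member not called by it may therefore still differ between batches. In batch 1 the log2 differences were 0.99 for Jund, 0.82 for Junb, 0.55 for Jun, 0.84 for Fos, 0.93 for Fosb, 1.12 for Fosl2, 0.86 for Atf3, 2.66 for Batf3 and 1.504 for Maff, and 4 members were called (Fosb, Fosl2, Jund and Maff; 13.3% of genes in either direction). In batch 2 the differences were 1.01, 1.69, 1.16, 2.26, 2.16, 1.21, 1.90, 1.61 and 1.48 in the same order, and 3 were called (Fosb, Jund and Atf3; 0.567% of genes). Jund, Maff and Fosl2 had nearly equal differences in the 2 batches. For the other members but Batf3 the difference was larger in batch 2, yet no member was called for a difference between batches by edgeR (2 of 9, Fosb and Atf3, had an unadjusted p under 0.05, and 2.68% of genes were called).

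In HSC-like cells the log2 differences in batch 1 were 0.79 for Jund, 1.35 for Junb, 0.80 for Jun, 0.58 for Fos, 0.48 for Fosb, 1.39 for Fosl2, 0.97 for Atf3 and 0.98 for Maff, and 4 were called (Fosl2, Jun, Junb and Jund; 7.51% of genes). In batch 2 they were 1.32, 1.48, 0.38, 0.89, 1.97, 1.52, 2.25 and 1.17 in the same order, and 5 were called (Fosb, Fosl2, Junb, Jund and Atf3; 2.3% of genes). The difference between batches was called for 0 of 8 members by edgeR (3 had an unadjusted p under 0.05), where 0.369% of genes were called.

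**Figure D2:**
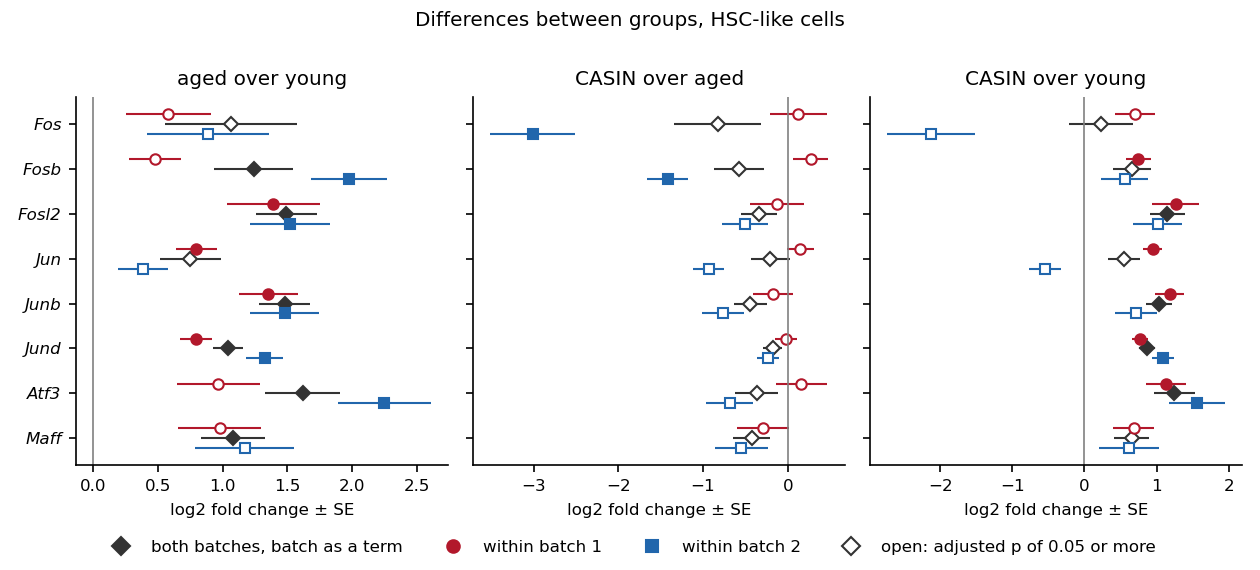
Log2 difference with its standard error for each of the 8 members tested in HSC-like cells, for aged over young, CASIN over aged and CASIN over young, with both batches together and within each batch. The aged over young points all lie above 0, from 0.75 for Jun to 1.62 for Atf3 with both batches together, and the CASIN over aged points with both batches together lie below 0, from -0.18 for Jund to -0.83 for Fos, and are open, that is, not called.

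Other measures moved with the same samples. Handling and stress genes, a list of 24 such as Hspa1a, Ier2 and Dusp1 without the members, summed over all LSK cells to between 5250.3 and 8184 CPM (young), 7162 and 8618 CPM (aged) or 5543 and 7905 CPM (CASIN), and 8 of the 24 were higher in aged than in young samples. Mature myeloid genes, such as S100a9, summed over all LSK cells to between 246 and 329.9 CPM (young), 296 and 665 CPM (aged) or 237 and 297 CPM (CASIN), with 0 of 7 tested called by edgeR (1 at an unadjusted p under 0.05), and in HSC-like cells to between 226 and 333 CPM in the 9 samples with Adgre1 at 0. Their part in the differences of the members was not tested. The number of members called also changed with the samples and with the batch term. For these fits the share of all genes called is not given. Over all LSK cells 2 members (Jund and Maff) were called without young sample 1 or without young sample 2, 3 (Fosl2, Jund and Maff) without young sample 3 and 0 without the batch term. In HSC-like cells 5 to 7 members were called with any 1 sample left out and 0 without the batch term.

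CASIN samples of aged mice were compared with aged controls to see whether the treatment moved the family. No member was called: over all LSK cells 0 of 9 members were called by edgeR, where 0% of 13948 genes were called (452 genes, 3.24%, had an unadjusted p under 0.05), and DESeq2 also called 0 genes. The log2 difference of CASIN over aged was below 0 for all 9 members, from -0.35 for Jund to -1.17 for Fos, with a median of -0.70 against 0.00126 over all genes. The unadjusted p was under 0.05 for 7 members, lowest for Jund (difference -0.35, SE 0.077, adjusted p = 0.991) and Maff (-0.70, SE 0.19, adjusted p = 0.991), and all 9 had the same adjusted p of 0.991. The CASIN samples lay below the aged samples of both batches without overlap for 4 of 9 members, Fosl2, Junb, Jund and Maff, as did 6.93% of genes. The aged samples are the same in this comparison and in that of aged with young, so that an aged sample with high values moves both.

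These differences were also taken within each batch. In batch 1, with CASIN samples 1 and 2 against aged sample 1, the log2 differences over all LSK cells were -0.07 for Fos, 0.04 for Fosb, -0.07 for Jun, -0.06 for Atf3, -0.25 for Jund, -0.27 for Junb, -0.37 for Fosl2 and -0.66 for Maff. In batch 2, with CASIN sample 3 against aged samples 2 and 3, they were -2.21, -1.55, -1.39, -1.20, -0.49, -1.01, -0.76 and -0.79 in the same order. Fos, Fosb, Jun and Atf3 thus had values near 0 in batch 1 and below -1 in batch 2, while Maff had nearly the same value in both. The difference between the batches was not called for any member by edgeR (0 of 9, with 4 at an unadjusted p under 0.05), and 0% of 14468 genes were called. No member was called within a batch over all LSK cells by edgeR (unadjusted p under 0.05 for 2 of 9 in batch 1 and 8 of 9 in batch 2), where 0% and 0.0138% of genes were called.

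In HSC-like cells 0 of 8 members were called between CASIN and aged samples by edgeR, where 0% of genes were called (376 genes, 3.27%, had an unadjusted p under 0.05, among them Junb of the members) and DESeq2 called 1 gene. The differences were -0.83 for Fos, -0.58 for Fosb, -0.44 for Junb, -0.43 for Maff, -0.37 for Atf3, -0.34 for Fosl2, -0.21 for Jun and -0.18 for Jund. Groups did not overlap within either batch for 2 of 8 members, Junb and Maff, as for 9.69% of genes. Within batch 2, Fos (-3.01, adjusted p = 0.037) and Fosb (-1.42, adjusted p = 0.0418) were lower in CASIN sample 3 than in aged samples 2 and 3, and 0.0672% of genes were called. Their levels there were low, at 9.21 against 118 and 34.8 CPM for Fos and at 40.2 against 132 and 90.2 CPM for Fosb. In batch 1 the same differences were 0.12 and 0.27 and not called, and the difference between batches had an adjusted p of 0.328 for both genes (0 of 8 members called by edgeR, 3 with an unadjusted p under 0.05, and 0% of genes called).

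CASIN samples were also compared with young samples. Over all LSK cells 2 of 9 members were higher in CASIN samples, Jund (0.68, SE 0.073, adjusted p = 0.00448) and Maff (0.81, SE 0.18, adjusted p = 0.0421), where 4.09% of genes were called higher and 4.5% in either direction. The other differences were 0.61 for Fos, 0.89 for Fosb, 0.66 for Fosl2, 0.30 for Jun, 0.60 for Junb, 0.78 for Atf3 and 2.08 for Batf3. Leaving out samples gave 1 to 5 calls: 1 without young sample 1 or 2 or any CASIN sample, 4 without aged sample 1 and 5 without aged sample 2. The share of all genes called in these fits is not given, so the counts are not read as a trait of the family. Split by batch, 2 of 9 members (Fosb and Jund; 9.48% of genes) were called in batch 1 and 0 of 9 by edgeR in batch 2 (3 with an unadjusted p under 0.05; 0.85% of genes), with differences of 0.73 and 0.52 for Jund, 0.84 and 0.69 for Maff and 0.48 and -0.22 for Jun. The difference between batches was called for 0 of 9 by edgeR (unadjusted p under 0.05 for Jun), where 0.0622% of genes were called. CASIN samples lay above the young of both batches without overlap for 8 of 9 members, all but Jun, as did 23.9% of genes, and in HSC-like cells for 6 of 8, as did 16.3%. Batf3 is among the 8, under the same limit of the low-count filter. In HSC-like cells 4 of 8 were higher in CASIN than in young samples, where 7.7% of genes were called higher and 12.5% in either direction: Jund (0.86, SE 0.11, adjusted p = 0.000153), Junb (1.03, SE 0.18, adjusted p = 0.0021), Fosl2 (1.15, SE 0.24, adjusted p = 0.00542) and Atf3 (1.25, SE 0.28, adjusted p = 0.00851). Aged and CASIN samples both lay above young samples within each batch for Fosb, Fosl2, Junb, Jund, Atf3 and Maff in HSC-like cells.

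Within batch 1, where 2 young and 2 CASIN samples could be set against each other, 6 of 8 members were called higher in HSC-like cells of CASIN samples (10.8% of genes in either direction). Jun was among them, with a difference of 0.95 (adjusted p = 0.000242). In batch 2 the difference of Jun was -0.55 and that of Fos -2.13, neither called, and 2 members (Jund and Atf3; 2.8% of genes) were called higher. The difference between the batches was called for Jun, at -1.49 (SE 0.26, adjusted p = 0.0226), 1 of 8 members called, with 0.227% of genes called.

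Of 11 named or unnamed classes of cells, HSC-like cells had the highest mean level of Fos, Jun, Junb, Jund and Maff over the 9 samples. In batch 1, Fos was at 2370.4 to 4529 CPM in HSC-like cells, 2198 to 4121 CPM in HSC-like cells with MHC class II genes, 1374 to 2879 CPM in MPP3-like cells, 1119 to 1405 CPM in lymphoid-primed (LMPP-like) cells and 684 to 1109.6 CPM in S phase-like cells. In the order of all 11 classes by mean level, each range of batch 1 overlapped that of its neighbour, while the HSC-like and LMPP-like ranges did not overlap. In batch 2 Fos was at 9.21 to 118 CPM in HSC-like, 21.8 to 215 CPM in LMPP-like and 177 to 653 CPM in myeloid progenitor-like cells. The last of these ranges lay above that of HSC-like cells. Jun stood at 749 to 1575 CPM in HSC-like against 596 to 817 CPM in LMPP-like cells of batch 1 and 62.4 to 144 CPM against 150.2 to 466 CPM in batch 2. For Jund the HSC-like range of 1466 to 2679.9 CPM lay above the S phase-like range of 477 to 539 CPM in batch 1, whereas in batch 2 the ranges were 459 to 1182 CPM and 821 to 1557 CPM. The HSC-like range of Fos and of Jund thus lay above that of another class in batch 1 and overlapped it in batch 2. That of Jun lay below the LMPP-like range in batch 2. These levels are given without a test.

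Other members had their highest mean level elsewhere. Batf3 averaged 17.6 CPM in myeloid progenitor-like cells and at most 0.137 CPM in any other class. Atf3 averaged 135 CPM in myeloid progenitor-like cells, 119 CPM in LMPP-like cells and 77.5 CPM in HSC-like cells, and its ranges in these 3 classes overlapped in both batches. Fosb and Fosl2 averaged 440.3 and 156 CPM in MPP1-like cells against 359 and 99.6 CPM in HSC-like cells, with overlapping ranges in both batches. MPP1-like cells were shallow, with median UMIs per cell at 0.579 of the median of all kept cells of the sample (median over samples).

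Within classes, the aged over young difference could be fitted in 8 of 11, those with at least 20 cells in every sample. All 64 log2 differences (8 members, 8 classes) were above 0, and 27 were called. The classes are cells of the same 9 samples, so 1 sample with high or low values moves all classes together. The 64 values are therefore not separate results, and the share of all genes with 1 sign in all classes is not given. Of the 8 members, 6 were called higher in HSC-like cells, 5 in HSC-like cells with MHC class II genes (1.44% of genes higher), 5 in MPP1-like cells (1.1%), 5 in MPP3-like cells (1.75%), 4 in megakaryocyte-primed MPP2-like cells (0.814%), 1 in LMPP-like cells (0.243%), 1 in S phase-like cells (0.245%) and 0 by edgeR in a class led by Hist1h2bc (0.211%), where 6 of 8 had an unadjusted p under 0.05. Jund was called in 5 classes, with differences of 0.76 to 1.12, and its values in LMPP-like cells (0.65, adjusted p = 0.142) and S phase-like cells (0.37, adjusted p = 0.321) did not pass. Maff was called in HSC-like, MPP1-like (1.74), MPP3-like (1.54), MPP2-like (1.73) and LMPP-like cells (1.35), the last with no other member called. Jun was called in HSC-like cells with MHC class II genes (1.12), and Fos in none of the classes, with its lowest adjusted p of 0.0511 there. The name MPP3-like rests on 3 markers, and the MPP2-like cluster has 2 S phase markers among its leading genes. With 1 sample left out, 16 to 44 of the 64 were called, with 16 without young sample 1, 17 without young sample 3 and 44 without aged sample 1. For these fits too the share of all genes called is not given.

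**Figure D3:**
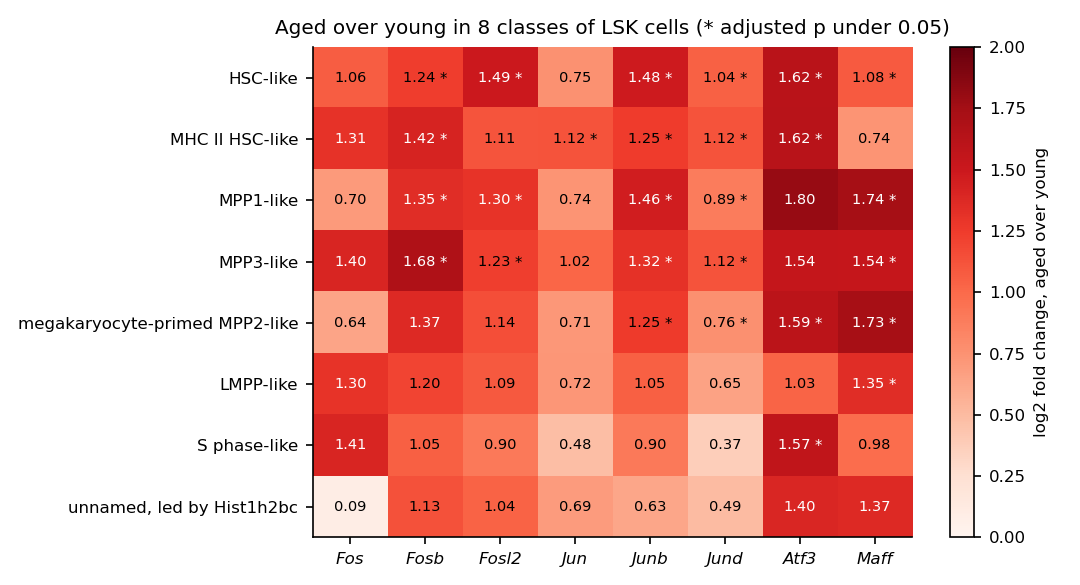
Log2 difference between aged and young samples for 8 members (columns) in the 8 classes fitted (rows), with an asterisk at each called difference. All 64 values lie above 0, from 0.09 for Fos in the class led by Hist1h2bc to 1.80 for Atf3 in MPP1-like cells. The classes are cells of the same samples, so the values are not separate results.

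Whether the difference was larger in stem cells than in lymphoid-primed cells was tested for HSC-like against LMPP-like cells, with the sample as a block. Jund was called, with an aged over young difference larger by 0.40 (SE 0.11, adjusted p = 0.0422) in HSC-like cells, 1 of 8 members called where 3.07% of genes were called. Jund in LMPP-like cells stood at 754, 858 and 569 CPM in the young, 913, 1186 and 1217 CPM in the aged and 827, 922 and 895 CPM in the CASIN samples, and there too the aged samples lay above the young of their batch. The call was lost, with 0 members called, without young sample 2, aged sample 1, aged sample 2 or CASIN sample 3. Without young samples 1 and 3, 2 and 3 members were called, and the share of all genes called in such fits is not given. CASIN over aged was not called in any class for any member by edgeR, and 0% of genes were called in each. At an unadjusted p under 0.05 stood 1 to 7 of 8 members per class. Of 64 differences, which again share their samples across classes, 63 were below 0 (Fos in the class led by Hist1h2bc was at 0.05). The nearest was Atf3 in MPP2-like cells, at -1.44 (SE 0.21, adjusted p = 0.0508). CASIN over young was called for Junb (0.87) and Jund (0.90) in HSC-like cells with MHC class II genes (2.02% of genes in either direction) and for Jund in MPP3-like (0.68; 1.02%) and MPP2-like cells (0.42; 0.657%). By edgeR 0 of 8 members were called in MPP1-like (1.32%; 3 with an unadjusted p under 0.05), LMPP-like (0.148%) and S phase-like cells (0.264%) and in the class led by Hist1h2bc (0.0983%), the last 3 with 0 members at an unadjusted p under 0.05.

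Per cell, the summed UMIs of the 9 members followed the batch. With each cell thinned to 4000 UMIs (6 to 68 shallower cells per sample left out), the median cell held 14, 14 and 4 member UMIs in the young, 26, 12 and 8 in the aged and 25, 22 and 6 in the CASIN samples. In HSC-like cells the medians were 24, 22 and 3, then 39, 10 and 6, then 45, 41 and 6. Within a batch every aged sample lay above the young, and CASIN sample 3 lay level with or below aged samples 2 and 3. Across batches the groups overlapped. The mean of the sample medians was 10.7 ± 5.77 (SD, n = 3) in young, 15.3 ± 9.45 in aged and 17.7 ± 10.2 in CASIN samples over all LSK cells. The difference of aged over young was 4.67 (two-sided exact permutation test, p = 0.6; 12 in batch 1 and 6 in batch 2), and 0.1 is the smallest p that 3 against 3 samples allow. This test exchanges samples across the batches, so the gap between batches counts as spread in it and its p-values do not bear on the differences within a batch. That of CASIN over aged was 2.33 (exact permutation p = 1; -2.5 and -4 within the batches). In HSC-like cells aged over young was 2 (exact permutation p = 0.9; 16 and 5 within the batches) and CASIN over aged 12.3 (exact permutation p = 0.5; 4 and -2). CASIN over young was 7 over all LSK cells (exact permutation p = 0.4; 9.5 and 2) and 14.3 in HSC-like cells (exact permutation p = 0.3; 20 and 3). Over these 6 tests the Benjamini-Hochberg adjusted p of the exact permutation tests was 0.9 or 1. Pooled and within-batch differences of CASIN over aged had opposite signs over all LSK cells, where batch 1 holds 2 of the CASIN and 1 of the aged samples.

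**Figure D4:**
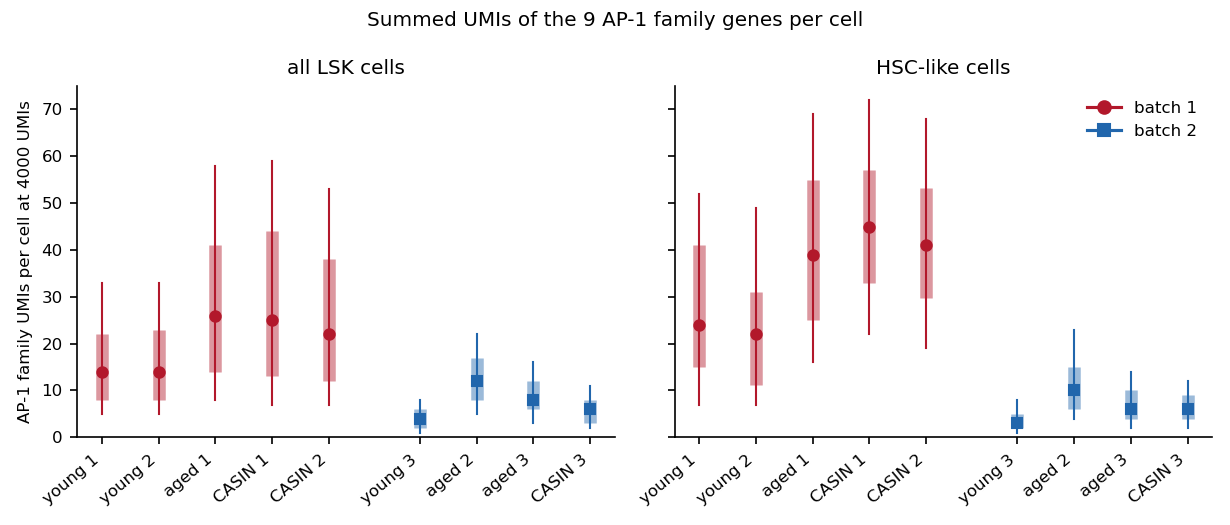
Summed UMIs of the 9 members per cell after thinning to 4000 UMIs, for each sample, over all LSK cells and over HSC-like cells; symbols are medians of cells, boxes the middle 50% of cells and lines the middle 80%. Medians of HSC-like cells lie at 22 to 45 in batch 1 and at 3 to 10 in batch 2.

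The share of HSC-like cells with a UMI shows how the batches differ cell by cell. At 4000 UMIs, Fos was seen in 96.3%, 94.6% and 4.52% of HSC-like cells of the young, 97.6%, 9.23% and 3.68% of the aged and 100%, 98.1% and 2.18% of the CASIN samples. Without thinning the shares of Fos were 98.9%, 98.2% and 4.44%, then 99.3%, 15.0% and 7.79%, then 100%, 99.5% and 4.72%. Nearly every HSC-like cell of batch 1 held Fos RNA and few of batch 2 did. Fosl2 was seen in 8.06%, 5.04% and 32.8% of HSC-like cells of the young, 14.7%, 66.2% and 40.1% of the aged and 12.3%, 14.3% and 45.4% of the CASIN samples (unthinned 16.4%, 14.7% and 53.9%, then 28.3%, 89.5% and 69.5%, then 29.96%, 27.9% and 69.1%). Atf3 was seen in 5.86%, 5.04% and 7.34%, then 9.85%, 40.6% and 25.4%, then 14.4%, 10.98% and 29.7% of them (unthinned 11.6%, 10.4% and 21.1%, then 18.4%, 62.9% and 48.1%, then 23.5%, 17.8% and 43.1%). For Fosl2 and Atf3 each aged sample had a larger share than the young samples of its batch. No class of LSK cells is known to lack these genes, so no background share from free RNA could be set beside them, and its part in the shares of Fos in batch 2 was not tested.

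Within single samples, Fos, Fosb and Jun varied together from cell to cell in HSC-like cells thinned to 4000 UMIs. Across the 177 to 735 cells of a sample, which share their library, Pearson's r of Fos with Fosb was 0.276 to 0.738 over the 9 samples (median 0.485). Fos with Jun gave 0.147 to 0.655 and Fosb with Jun 0.102 to 0.548. Jund followed Fos at 0.333 to 0.548 in batch 1 and at 0.145 to 0.212 in batch 2. Fosb with Jund gave 0.349 to 0.528 and 0.0651 to 0.247 in the same order, and Jun with Jund 0.355 to 0.445 and 0.0170 to 0.175. Pairs with the other early genes had lower medians over the samples and reached about 0 in some of them. In CASIN sample 3, however, Fos with Jun (0.147) and Fosb with Jun (0.102) lay below Fos with Atf3 (0.160). Fos with Junb gave 0.0856 to 0.369, Fosb with Junb 0.0105 to 0.384 and Jun with Junb -0.0116 to 0.273. Atf3 gave 0.0262 to 0.347 with Fos, 0.00297 to 0.368 with Fosb, -0.0768 to 0.346 with Jun and 0.000834 to 0.326 with Junb. Fosl2 with Jun ran from -0.0401 to 0.0238 in batch 1 and from -0.0190 to 0.255 in batch 2, and Atf3 with Maff from -0.0820 to 0.0613 and from -0.0618 to 0.239, and in counts this sparse nothing is read from the weak values. The sum of the members had r of -0.229 to 0.057 with the mitochondrial share of the cell. These are descriptions across cells, which are not replicates.

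Of 2663 genes with enough UMIs in 3371 HSC-like cells, those most like the family had the highest mean r over 9 samples with the sum of the members. Dusp1 (mean r 0.317), a phosphatase of MAP kinases, Egr1 (0.302), a zinc finger immediate early gene, and Zfp36 (0.281), which destabilises early mRNAs, led, and those that followed included Klf2 (0.257), Klf4 (0.251), Mcl1 (0.217), Klf6 (0.189), Rgcc (0.164) and Nr4a1 (0.164). All of these but Rgcc stand in the lists of early, inhibitor or handling genes used here. The order changed with the batch: Zfp36 (0.369), Dusp1 (0.358) and Egr1 (0.317) led in batch 1, and Nr4a1 (0.326), Nr4a2 (0.296) and Tiparp (0.287) in batch 2.

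Genes around AP-1 were read from lists of its regulators, partners and targets. Between aged and young samples over all LSK cells, 0 of 26 kinases and transcription factors upstream of AP-1 were called by edgeR (4 with an unadjusted p under 0.05; median log2 difference 0.0416), and in HSC-like cells 2 of 26 were higher, Mef2d (0.48) and the kinase Rps6ka3 (0.46). Of 17 inhibitors 0 were called by edgeR over all LSK cells (5 with an unadjusted p under 0.05; median 0.293) and 4 were higher in HSC-like cells, among them Spry2 (1.15) and Spred1 (0.55), which restrain RAS signalling, and Zfp36 (0.94). These counts stand beside the 3.62% and 5.75% of all genes called higher.

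Other immediate early genes moved in larger numbers. Over all LSK cells 13 of 21 tested were higher in aged than in young samples (median 0.973), led by the nuclear receptor Nr4a2 (2.26), Ppp1r15a (0.69) and Cyr61 (3.38), and in HSC-like cells 16 of 21 (median 1.09), led by Egr3 (2.47), Nr4a2 (2.12) and Ier2 (1.09). Of textbook AP-1 target genes, 3 of 14 tested were higher over all LSK cells, Hbegf (1.40), Ccnd1 (0.78) and Plaur (0.76), and 6 of 12 in HSC-like cells, among them Cdkn1a (1.05), Hbegf (1.35) and Plaur (0.82). None of either list was called lower. Of 26 AP-1 and related bZIP genes outside the members, 4 were higher over all LSK cells, among them Maf (1.18), Fosl1 (1.20) and Cebpd (0.61). In HSC-like cells 5 of 25 of them were higher, among them Atf4 (0.52), Cebpb (0.89) and Cebpd (1.27), and 2 lower. Handling and stress genes, some of them also on the early list, had 13 of 24 higher in HSC-like cells, where their sum lay between 4861 and 7699 CPM (young), 5651 and 9677 CPM (aged) or 5133 and 9245 CPM (CASIN). Between CASIN and aged samples 0 genes of any of these lists were called by edgeR, as of all genes (over all LSK cells 7 other immediate early, 7 handling and 2 target genes had an unadjusted p under 0.05), and the median difference over all LSK cells was -0.381 for other immediate early genes, -0.370 for handling genes and -0.238 for target genes. Of lists for other cells the sort could hold, 0 of 10 lymphocyte, 0 of 3 red cell and 0 of 6 stromal and endothelial genes tested were called by edgeR between aged and young samples over all LSK cells (1, 1 and 3 at an unadjusted p under 0.05). In HSC-like cells 1 of 3 lymphocyte genes (Nkg7, -1.40) and 1 of 5 mature myeloid genes (Itgam, -1.92) were lower. Kdr (1.36) was higher and Emcn (-0.65) lower among 6 stromal and endothelial genes. Of the red cell genes, 0 of 2 were called by edgeR (both at an unadjusted p under 0.05). The LSK identity genes Slamf1 (2.24) and Procr (0.83) were higher and Cd34 (-1.61) lower in aged HSC-like cells, 2 higher and 3 lower of 7. There the lymphocyte genes summed to between 15.4 and 77.5 CPM in the 9 samples with Cd3e, Cd3g and Cd8a at 0, and the red cell genes to between 16.3 and 95.6 CPM.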

How the data were processed

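LSK cells of 9 samples were sequenced in 2 batches and made into UMI counts per gene and cell by the authors with Cell Ranger 3.1.0 on mm10; the deposited counts are filtered matrices, not normalized. Surface antibody counts were not used here. Barcodes were kept with 1000 to 40000 UMIs, at most 6000 genes, at most 10% mitochondrial UMIs and a residual of genes on UMIs within 0.4, after the study's methods. Kept cells were clustered with Seurat 5.3.0 (sctransform 0.4.2) without the members and other early-response genes, and classes were named from marker lists. The 9 libraries were joined by anchors before clustering, which aligned samples across groups as well as across batches. Doublets called by Scrublet (scanpy 1.11.5) were 67 cells, 0.423%, so the caller was treated as not having worked and no cell was removed.

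UMIs were summed per sample and class, and groups were compared over all 9 samples with edgeR 4.0.16 (R 4.3.3; TMM, filterByExpr, quasi-likelihood test, group and batch as terms, Benjamini-Hochberg over all genes tested, threshold 0.05). Within-batch values are contrasts of group by batch means. The test returns no standard error (SE). The SE given with a difference, in the text and in the figure, is its size divided by the square root of the test's F. It therefore follows from the test and is no separate measure of spread. Means of sample medians were compared by two-sided exact permutation tests (scipy 1.17.1), for which 0.1 is the smallest p. Cells were thinned to 4000 UMIs for shares, sums and correlations. Intervals are not given, since the spread between samples exceeds counting error, which is all a UMI count carries. On simulated counts the test recovered 75% of genes changed by 1 on the log2 scale over all LSK cells and 73% in HSC-like cells (13818 and 11319 genes), and the test of a difference between batches 4% in each (14214 and 11756 genes). The simulation gave every gene the same dispersion and batch shifts mostly smaller than those of most members. These shares therefore do not give the power of the test for the members. All 9 members are named; of the other lists up to 3 genes per comparison are named, those called with the smallest p. Some values of listed genes are not reported here. The members and lists were chosen with earlier results of these data known. Alternatives were another tool, filters, mitochondrial limits, clustering, thinning, no batch term, a replicate block and each sample left out.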

Additional observations from a re-analysis of the deposited data

Results flagged for a closer look

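Jun in HSC-like cells differed between the batches in its CASIN over young comparison. The log2 difference was 0.95 in batch 1 and -0.55 in batch 2, and the difference between them, tested as an interaction with edgeR, was -1.49 (adjusted p = 0.0226). Jun stood at 827 and 749 CPM in young samples 1 and 2 and 1374 and 1575 CPM in CASIN samples 1 and 2, and at 100.01 CPM in young sample 3 and 62.4 CPM in CASIN sample 3, so each arm of batch 2 is a single sample.

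Jund had an aged over young difference that was larger in HSC-like than in LMPP-like cells by 0.40 on the log2 scale (edgeR interaction, adjusted p = 0.0422). The difference was 1.04 in HSC-like and 0.65 in LMPP-like cells. In this test 3.07% of all genes were called. The call of Jund was lost without young sample 2, aged sample 1, aged sample 2 or CASIN sample 3.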

How the results depend on the processing

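Most values kept their direction and call: of the members' log2 differences, 532 did under alternatives other than leaving out a sample, 32 gained and 42 lost a call and 22 reversed, and with 1 sample left out 408 did, 19 gained, 21 lost and 5 reversed. Without the batch term the count of members called fell to 0 for aged over young in all LSK and HSC-like cells and for CASIN over young in both, and log2 differences reversed for aged over young over all LSK cells (Fos -0.062) and in HSC-like cells (Fos -0.37, Fosb -0.13, Jun -0.050), and for CASIN over aged over all LSK cells (Fos 0.84, Fosb 0.14, Jun 0.26) and in HSC-like cells (Fos 1.07, Fosb 0.87, Jun 0.94, Junb 0.22, Jund 0.36). Batch 1 alone reversed CASIN over aged for Fosb over all LSK cells (0.041) and for Fos (0.12), Fosb (0.27), Jun (0.15) and Atf3 (0.16) in HSC-like cells. Batch 2 alone gave 3 calls for aged over young over all LSK cells, 0 and 2 for CASIN over young over all LSK and in HSC-like cells and 2 for CASIN over aged in HSC-like cells, and reversed CASIN over young for Jun over all LSK cells (-0.22) and for Fos (-2.13) and Jun (-0.55) in HSC-like cells. A limit of 5% mitochondrial UMIs gave 1 call for CASIN over young over all LSK cells and Fos 0.072 for CASIN over aged in HSC-like cells. Fits of only the groups compared called 2 (aged over young) and 7 (CASIN over young) members over all LSK cells, and DESeq2 4 for CASIN over young. Without a filter on low counts 3 members were called for CASIN over aged and 7 for CASIN over young in HSC-like cells, 1 for the difference between batches, 4 for HSC-like against LMPP-like and 58 of 64 in classes. The cause of these changes was not tested. For most alternatives the share of all genes called is not given beside the count of members. This holds for left-out samples and the replicate block too. Such counts are therefore not read as a trait of the family.

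With 1 sample left out, the calls over all LSK cells were 2 to 7 for aged over young, 0 to 0 for CASIN over aged and 1 to 5 for CASIN over young. In HSC-like cells they were 5 to 7, 0 to 1 (1 without aged sample 1) and 4 to 6. They were 7 to 7 between batches, 0 to 4 for the difference between batches (4 without aged sample 3, 1 without CASIN sample 1 or 2, and no value without aged sample 1 or young sample 3), 0 to 3 for HSC-like against LMPP-like and 16 to 44 in classes. Some log2 differences reversed. CASIN over aged ran from -0.52 to 0.0019 for Batf3 over all LSK cells, and in HSC-like cells from -1.78 to 0.052 for Fos and -0.39 to 0.27 for Jun (above 0 without CASIN sample 3) and from -0.78 to 0.0047 for Atf3 (above 0 without aged sample 2). CASIN over young of Fos in HSC-like cells ran from -0.11 (without CASIN sample 1) to 0.74. Differences of median UMIs of the family per cell ran, over all LSK cells, from -0.667 to 8.33 (aged over young), -1.33 to 8.17 (CASIN over aged) and 3.33 to 12.8 (CASIN over young), and in HSC-like cells from -8.33 to 8.17, 5.17 to 24.7 and 7.17 to 26.7.

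Correlations between same-numbered samples beyond group and batch were -0.62 to 0.26. Taking out group and batch from 9 samples itself ties their deviations together. Young sample 3 and aged sample 1, which share neither number nor batch, reached 0.74 over all LSK cells. These values therefore cannot decide whether the numbers pair samples. With a replicate block beside the batch term, 4 members were called for aged over young in each set of cells, 0 for CASIN over aged, and 3 and 5 for CASIN over young over all LSK and in HSC-like cells, and Atf3 reversed (0.092) for CASIN over aged in HSC-like cells.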

Other observations

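When the cells were clustered with the members and other early-response genes kept in, a cluster of 1071 cells was led by Fosb and Fos. It held 10.25% of the cells of batch 1 and 2.373% of those of batch 2. By sample its share was 7.67%, 8.13% and 2.25% in the young, 15.9%, 2.32% and 2.76% in the aged and 11.1%, 10.6% and 2.19% in the CASIN samples, and 54.62% of its cells (585) lay in the HSC-like class formed without those genes. Its leading genes formed it, so these sizes are no measure of a cell type.

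The barcodes that passed every other filter and were left out for a mitochondrial share over 10% numbered 112 to 217 per sample in batch 1 and 1648 to 3698 in batch 2. In them Fosb stood at 834, 559 and 64.9 CPM in the young, 2380.1, 235 and 229 CPM in the aged and 3936, 1579.9 and 86.4 CPM in the CASIN samples. Fosl2 stood at 55.0, 24.5 and 186 CPM in the young, 224, 462 and 240.0 CPM in the aged and 167, 169 and 221 CPM in the CASIN samples. Fos stood at 954, 784 and 15.3 CPM in the young, 1706, 72.4 and 37.2 CPM in the aged and 2128, 1625 and 17.5 CPM in the CASIN samples, and every batch 1 value of Fos lay above every batch 2 value, as in the kept cells.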
